A study of Mus musculus with 12 samples.

Results

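The genes described here encode the steps that carry glucose into the cell and on to pyruvate and lactate, together with glycogen storage and the mannose phosphate branch. They were 44 genes taken by name from the 54658 gene names of a read count table: 3 transporters, 19 glycolytic genes, 12 genes of lactate and pyruvate handling, 6 of glycogen and 4 of mannose phosphate. Of these, 43 passed the filter on low counts and were tested among 13541 genes. *Aldoc*, the brain-type aldolase, did not pass, with a mean normalized CPM (counts scaled to the size of the library) of 0.803 ± 0.370 (SD, n = 6) in Control and 0.598 ± 0.145 (n = 6) in iNICD left atria (LA).

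RNA was sequenced from the LA of 6 iNICD mice, which carried both *αMHC-rtTA* and *tetO_NICD*, and of 6 littermate Control mice with *αMHC-rtTA* and no responder. In this system the α-myosin heavy chain promoter places the transactivator in cardiomyocytes, and doxycycline then switches on the Notch1 intracellular domain (NICD), so nonmyocytes of the same tissue do not carry an active transgene by design. Every mouse was 2 to 3 months old on a mixed genetic background, ate doxycycline chow for 3 weeks and was sampled with no washout. There were 4 females and 2 males among the Control mice and 3 of each sex among the iNICD mice, and each LA gave 1 library.

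Glucose enters the cardiomyocyte through facilitative transporters, is trapped by hexokinase and is split and oxidised to pyruvate by the glycolytic enzymes. Pyruvate either becomes lactate or enters the mitochondrion, where pyruvate dehydrogenase commits it to oxidation under the brake of the pyruvate dehydrogenase kinases. The adult heart burns mostly fatty acids, keeps glycogen as a reserve, and draws mannose 6-phosphate from fructose 6-phosphate to make the sugar donors for glycosylation.

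Library totals lay between 21432632 and 27182038 counts. *Notch1*, whose reads come from the transgene as well as the endogenous gene, measured 108.5 to 130.8 CPM in Control and 2975 to 4077 CPM in iNICD libraries. The atrial label was checked against markers: the cardiac myosin *Myh6* averaged 33640 CPM in Control, while the ventricular list of *Myl2*, *Myl3* and *Irx4* summed to 1.28 to 4.51 CPM over all 12 libraries and *Irx4* was at 0. Of 6 cardiomyocyte markers 4 were lower in iNICD, among them *Nppa*, and the summed level of the list was 77310 to 99740 CPM in Control and 51480 to 63040 CPM in iNICD. Most of that difference was *Nppa*, with a mean of 24220 CPM in Control and 4821 CPM in iNICD, while *Myh6* was not called, with 33640 and 32890 CPM (log2 fold change -0.03, adjusted p = 0.871). The other called markers were *Tnnt2* (log2 fold change -0.44, no overlap), *Myl7* (-0.54) and *Sln* (-0.64), and *Actc1* was at -0.46 (adjusted p = 0.435). No gene of the endothelial, fibroblast, smooth muscle and pericyte, leukocyte, adipocyte, erythroid, neural, skeletal muscle or epicardial lists was called, although all 3 tested erythroid genes had a lower level with an unadjusted p under 0.05, as did *Ckm* of the skeletal muscle list (774.4 CPM in Control and 540.6 CPM in iNICD, log2 fold change -0.52). The erythroid list summed to 47.1 to 220.7 CPM in Control and 23.2 to 123.9 CPM in iNICD. Mitochondrial genes took 7.52 to 9.59% of the counts in Control and 9.60 to 11.2% in iNICD libraries. The part of these shifts in the results that follow was not tested, and in a bulk sample fewer cells of a type and less RNA per cell cannot be told apart. One library stood apart from the others: Control replicate 5 lay at -77.4 on the first principal component, which held 32.7% of the variance, against -20.2 to 7.98 for the other Control libraries.

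Among the tested genes 3 were higher in iNICD (*Pmm1*, *Mpi* and *Pkm*) and 3 were lower (*Ldhd*, *Eno3* and *Ldha*). Across all tested genes 2.78% were called higher and 1.34% lower, so the counts of 3 among 43 in each direction are to be read against those shares. The genes and lists described here were chosen with earlier results of these data known. Setting their counts beside the shares is therefore no test of enrichment. The 37 remaining genes did not pass, and the median log2 fold change of the 43 was -0.05, with 13 above 0 and 30 below, beside a median of -0.01 over all tested genes. The groups did not overlap for 2 genes that were higher (*Pmm1* and *Mpi*), beside 2.58% of all tested genes, and for 2 that were lower (*Ldha* and *Ldhd*), beside 1.25%. With the mitochondrial genes left out of the counts the same 6 genes were called. The summed level of all 44 genes was 11630 to 13610 CPM in Control and 11210 to 13100 CPM in iNICD.

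**Figure D1:**
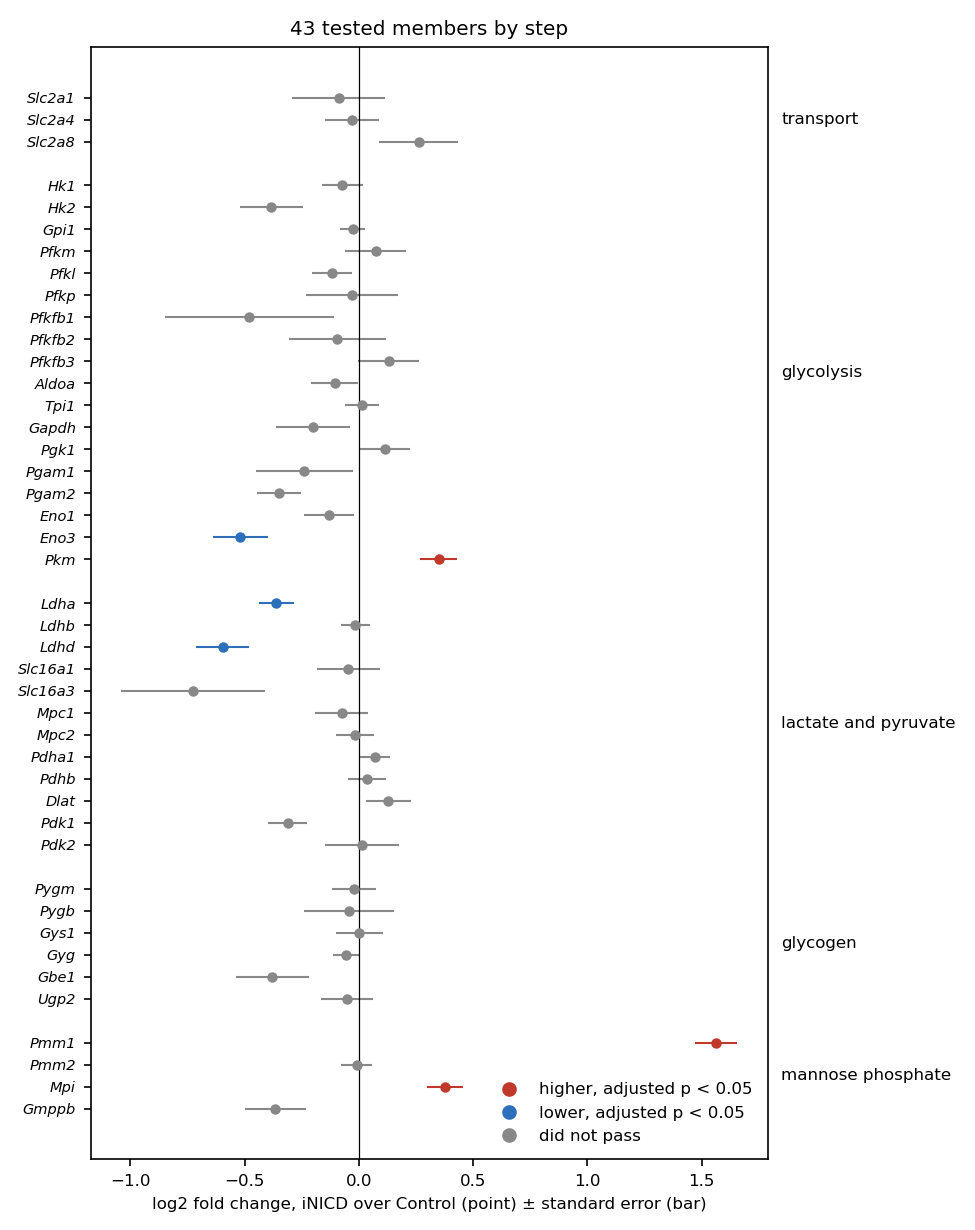
Log2 fold change of iNICD over Control LA (horizontal axis) for the 43 tested genes, grouped by step, with points for the estimate and bars for the standard error. *Pmm1* at 1.56 stands to the right of every other gene, *Mpi* and *Pkm* are the other 2 red points, and *Eno3*, *Ldha* and *Ldhd* are the 3 blue points.

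The mannose phosphate branch held the change of greatest size. *Pmm1* encodes a phosphomannomutase, which converts mannose 6-phosphate to mannose 1-phosphate, and lies at chr15:81951108-81960930 on the minus strand (GRCm38). *Mpi* encodes the mannose phosphate isomerase that links fructose 6-phosphate to mannose 6-phosphate, and lies at chr9:57544256-57552763, also on the minus strand. The 250 bases before the annotated start of each (RefSeq, GRCm38.p6) are shown because both genes were higher without overlap and both windows hold the letters TGGGAA, which the Notch partner RBPJ is known to recognise; capitals mark them. The windows are chr15:81960931-81961180 for *Pmm1* and chr9:57552753-57553002 for *Mpi*, each read 5′ to 3′ on the minus strand.
Pmm1: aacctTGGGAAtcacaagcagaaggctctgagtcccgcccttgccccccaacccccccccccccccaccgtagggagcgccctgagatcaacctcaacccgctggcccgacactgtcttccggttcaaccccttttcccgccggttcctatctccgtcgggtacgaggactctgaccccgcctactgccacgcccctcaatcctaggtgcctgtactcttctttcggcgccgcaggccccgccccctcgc
Mpi: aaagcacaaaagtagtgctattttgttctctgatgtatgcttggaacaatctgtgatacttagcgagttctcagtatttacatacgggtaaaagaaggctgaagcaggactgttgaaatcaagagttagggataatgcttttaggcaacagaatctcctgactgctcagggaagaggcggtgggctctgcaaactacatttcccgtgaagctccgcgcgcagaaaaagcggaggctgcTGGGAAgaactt
The match begins 245 bases before the start in *Pmm1* and 12 bases before it in *Mpi*. On either strand TGGGAA occurred in 21.6% of 32851 promoter windows of this length, and in 25.4% of 63 windows that belong to 42 of the genes described here. The letters were not particular to the higher genes: the window of *Eno3*, which was lower, held them once, 221 bases before its start, and that of *Pmm2*, which was not called, held them at 2 places. A match is a description of letters and not a measured binding site.

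*Pmm1* measured 11.01, 12.6 and 13.1 CPM (lowest, median and highest) in the 6 Control libraries and 31.1, 35.0 and 44.3 CPM in the 6 iNICD libraries. Every iNICD library exceeded the highest Control library by more than the whole Control range. The log2 fold change was 1.56 ± 0.09 (SE), a 2.96-fold higher level (edgeR quasi-likelihood test, adjusted p = 4.22e-07), and exact permutation of the libraries gave p = 0.00217 (two-sided, n = 6 per group), the smallest value that this design allows. The related *Pmm2*, which catalyses the same reaction and is the isozyme linked to a congenital glycosylation disorder, measured 29.7 ± 2.58 CPM in Control and 29.5 ± 1.64 CPM in iNICD (log2 fold change -0.01 ± 0.07, adjusted p = 0.967). Per kilobase of gene length, *Pmm1* therefore went from 44.7 ± 2.69% of the summed *Pmm1* and *Pmm2* level in Control to 70.4 ± 3.10% in iNICD (SD, n = 6 each), with ranges of 41.8 to 47.6% and 67.8 to 74.4%.

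*Mpi* measured 89.1, 92.2 and 105.1 CPM in Control and 108.5, 119.8 and 148.5 CPM in iNICD. The highest Control library, replicate 6, fell just short of the lowest iNICD library, so the groups were separate by a narrow margin. The log2 fold change was 0.38 ± 0.08 (adjusted p = 0.0168 with edgeR; exact permutation p = 0.00217). *Gmppb*, the catalytic subunit of the enzyme that makes GDP-mannose from mannose 1-phosphate, measured 13.8 ± 2.73 CPM in Control and 10.7 ± 1.45 CPM in iNICD and did not pass (log2 fold change -0.37 ± 0.13, adjusted p = 0.165).

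The other genes of mannose and sugar nucleotide metabolism were looked up as a list of 17, all of them tested. *Gmppa*, which pairs with *Gmppb*, was the 1 gene called: it was lower, with 72.1 ± 5.18 CPM in Control and 56.2 ± 6.58 CPM in iNICD (log2 fold change -0.36, adjusted p = 0.0261; called in 6 of 12 fits that left out 1 library). None of the 17 was called higher, all 17 had a log2 fold change below 0, from -0.70 for *Gfpt2* to -0.01 for *Tsta3*, and their median was -0.21. Without Control replicate 5, which had 121.4 CPM for *Gfpt2* against 29.3 to 58.6 CPM in the other Control libraries, all 17 were still below 0, from -0.39 for *Gmppa* to -0.04 for *Fpgt*, with a median of -0.13; *Gfpt2* was then at -0.30, *Uap1* went from -0.57 to -0.07 and *Ugdh* from -0.38 to -0.06. *Gfpt2*, *Pgm3*, *Galk1* and *Dpm2* had an unadjusted p under 0.05 and did not pass after adjustment. The summed level of the list was 774 CPM in Control replicate 5, 409.9 to 473.3 CPM in the other Control libraries and 363.6 to 450.4 CPM in iNICD.

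**Figure D2:**
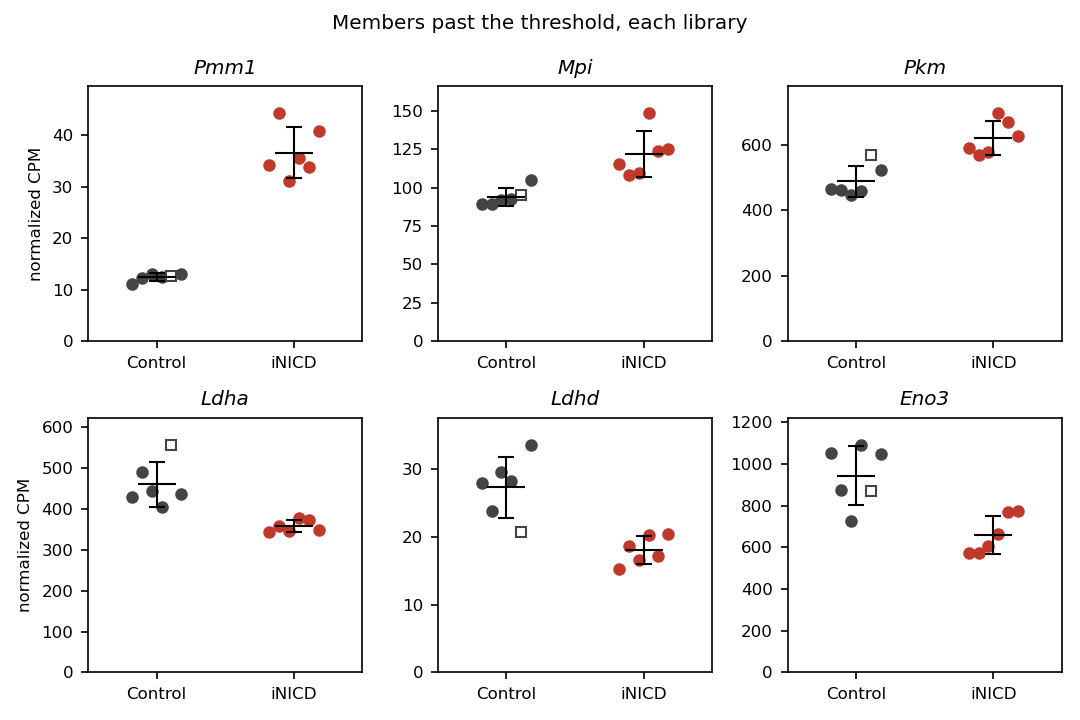
Normalized CPM (vertical axes, from 0) of the 6 genes past the threshold in each of 6 Control (grey) and 6 iNICD (red) libraries, with the mean and SD in black. Open squares are Control replicate 5; the groups are apart for *Pmm1*, *Mpi*, *Ldha* and *Ldhd* and overlap for *Pkm* and *Eno3*.

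Transport showed no called gene. *Slc2a4* (GLUT4), the insulin-responsive transporter of muscle, measured 356.5 ± 69.7 CPM in Control and 349.5 ± 16.4 CPM in iNICD. *Slc2a1* (GLUT1), the basal transporter, measured 32.8 ± 11.3 and 30.9 ± 5.87 CPM, and *Slc2a8* (GLUT8), an intracellular transporter, 19.9 ± 5.46 and 23.9 ± 3.27 CPM. Their log2 fold changes were -0.03, -0.09 and 0.26, with adjusted p of 0.925, 0.861 and 0.465. Per kilobase, *Slc2a4* made up 91.1 ± 4.66% of the summed *Slc2a1* and *Slc2a4* level in Control and 91.9 ± 1.61% in iNICD, and its lowest share in any library was 83.4%, in Control replicate 5. Of 10 tested genes among 12 other transport genes, *Slc2a10* (GLUT10) was lower (26.98 ± 3.00 CPM in Control, 21.6 ± 1.61 CPM in iNICD, log2 fold change -0.32, adjusted p = 0.0471).

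In the glycolytic steps 1 of 18 tested genes was higher and 1 was lower, beside 2.78% and 1.34% of all tested genes. The median log2 fold change was -0.10, and it was -0.03 without Control replicate 5. Both called genes lie at the payoff end of the pathway. *Pkm*, the muscle pyruvate kinase that makes pyruvate and ATP (chr9:59656368-59679375, plus strand), measured 446.7, 464.2 and 571.1 CPM in Control and 568.3, 608.9 and 697.3 CPM in iNICD. Control replicate 5 was the highest Control library and the only one to reach into the iNICD range, and 5 of 6 iNICD libraries exceeded every Control library. The log2 fold change was 0.35 ± 0.08 (adjusted p = 0.0276 with edgeR; exact permutation p = 0.00433). The table counts reads per gene, so the M1 and M2 splice forms of *Pkm* were not separated.

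*Eno3*, the muscle enolase that makes phosphoenolpyruvate one step before *Pkm* (chr11:70657202-70662513, plus strand), moved the other way. It measured 726.2, 960.6 and 1092 CPM in Control and 570.7, 634.6 and 774.6 CPM in iNICD. Control replicate 3 was the lowest Control library and overlapped the iNICD range, and 4 of 6 iNICD libraries were below every Control library. The log2 fold change was -0.52 ± 0.12 (adjusted p = 0.0272 with edgeR; exact permutation p = 0.00649). *Pgam2*, the muscle phosphoglycerate mutase that acts just before enolase, measured 480.7, 616.8 and 678.1 CPM in Control and 378.8, 483.3 and 520.1 CPM in iNICD. It missed the threshold (log2 fold change -0.35 ± 0.10, adjusted p = 0.0659); the lowest Control library was replicate 5, and without it the value was -0.41 with an adjusted p of 0.0112. The calls of *Pkm* and *Eno3* were each kept in 5 of 12 fits that left out 1 library and lost without any 1 of 7 libraries, while the log2 fold change stayed at 0.31 to 0.40 for *Pkm* and -0.58 to -0.47 for *Eno3*, with an adjusted p of at most 0.0682 for *Pkm* and 0.0683 for *Eno3*.

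Most other glycolytic genes had small differences. *Hk2*, the insulin-responsive hexokinase, measured 173.9, 211.4 and 342.4 CPM in Control and 160.0, 170.6 and 187.9 CPM in iNICD (log2 fold change -0.38 ± 0.14, adjusted p = 0.162); the value of 342.4 CPM was that of Control replicate 5, and without it the log2 fold change was -0.22. *Hk1*, the constitutive hexokinase, had a log2 fold change of -0.07. *Pfkm*, the muscle subunit of the rate-setting phosphofructokinase, measured 939.0 ± 188.5 CPM in Control and 988.5 ± 120.4 CPM in iNICD, and *Pfkl* and *Pfkp*, its liver and platelet subunits, had log2 fold changes of -0.12 and -0.03. *Pfkfb1*, *Pfkfb2* and *Pfkfb3*, which set the level of the phosphofructokinase activator fructose 2,6-bisphosphate, had values of -0.48 ± 0.37, -0.09 ± 0.21 and 0.13 ± 0.13, *Pfkfb1* on 19 to 90 counts per library. The middle steps were *Gpi1* (glucose phosphate isomerase, -0.03 ± 0.06), *Aldoa* (muscle aldolase, -0.11 ± 0.10) and *Tpi1* (triose phosphate isomerase, 0.01 ± 0.07). The standard error of the 37 genes that did not pass had a median of 0.114 on the log2 scale, and 27 of the 37 had a log2 fold change of less than 0.15 in size.

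The share of the muscle isozyme differed between steps. Per kilobase of gene length *Eno3* was 99.3% of the summed *Eno1* and *Eno3* level in Control and 99.1% in iNICD, *Pgam2* was 99.4% of *Pgam1* and *Pgam2* in both groups, and *Pfkm* was 90.4% and 91.8% of the phosphofructokinase subunits. The shares of *Eno3* and *Pgam2* are set against *Eno1* and *Pgam1*, whose own levels are uncertain because much of their sequence occurs in other genes (49.5% and 41.5% of windows). *Hk2* was 47.0 ± 4.34% of *Hk1* and *Hk2* in Control and 42.2 ± 2.90% in iNICD, with overlapping ranges. In RPKM, which is normalized CPM divided by the gene length in kilobases, *Pgam2* (714), *Eno3* (543), *Aldoa* (428) and *Pygm* (376) headed the order of mean Control levels; *Pfkm* and *Pdha1* followed at 281 each, and at the low end came *Pfkfb3* (1.86), *Slc16a3* (0.824), *Pfkfb1* (0.517) and *Aldoc* (0.246). Neighbours in this order such as *Aldoa* (SD 54.1) and *Pygm* (SD 48.1) lay within their spread. The order and the shares also depend on the deposited gene length. For some genes it far exceeds the number of 50-base windows along their protein-coding transcripts in GENCODE M21. It was 13401 bases beside 4536 windows for *Pfkp* and 7344 beside 976 for *Mpc2*, but 840 beside 791 for *Pgam2*.

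*Gapdh*, *Pgk1*, *Eno1* and *Pgam1* were low beside the steps around them, at 2.06, 4.73, 3.89 and 3.81 RPKM, whereas *Tpi1*, the step before *Gapdh*, was at 149.4. These are also the 4 genes with the largest share of sequence in common with other genes. Of the 50-base windows along its transcripts in GENCODE M21, *Gapdh* shared 58.4% with another annotated gene (222 other genes, 215 of them pseudogenes), *Pgk1* shared 68.0%, *Eno1* 49.5% and *Pgam1* 41.5%. Reads of 50 bases that fall in a shared window cannot be placed on 1 gene, so the levels of these genes are uncertain and *Gapdh* gives no reference level here. *Pdhb* (30.3%), *Gmppb* (29.3%) and *Mpc1* (26.8%) were the other 3 genes above 25%, 18 genes shared no window, and 19 lay between. Mean Control levels of these 3 were 56.96 RPKM for *Pdhb*, 4.963 for *Gmppb* and 5.496 for *Mpc1*. Whether sharing accounts for the low levels of *Gapdh*, *Pgk1*, *Eno1* and *Pgam1* was not tested. *Pmm1*, *Mpi*, *Eno3*, *Pgam2* and *Ldhd* shared none, *Ldha* shared 10.4% and *Pkm* 23.7%. Copies with reads of their own included *Eno1b* (30 to 77 counts per library) and *Mpc1-ps* (78 to 147 counts). Between groups *Gapdh*, *Pgk1*, *Eno1* and *Pgam1* had log2 fold changes of -0.20, 0.11, -0.13 and -0.24, and none passed; without Control replicate 5 these were -0.13, 0.17, -0.05 and -0.0015.

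**Figure D3:**
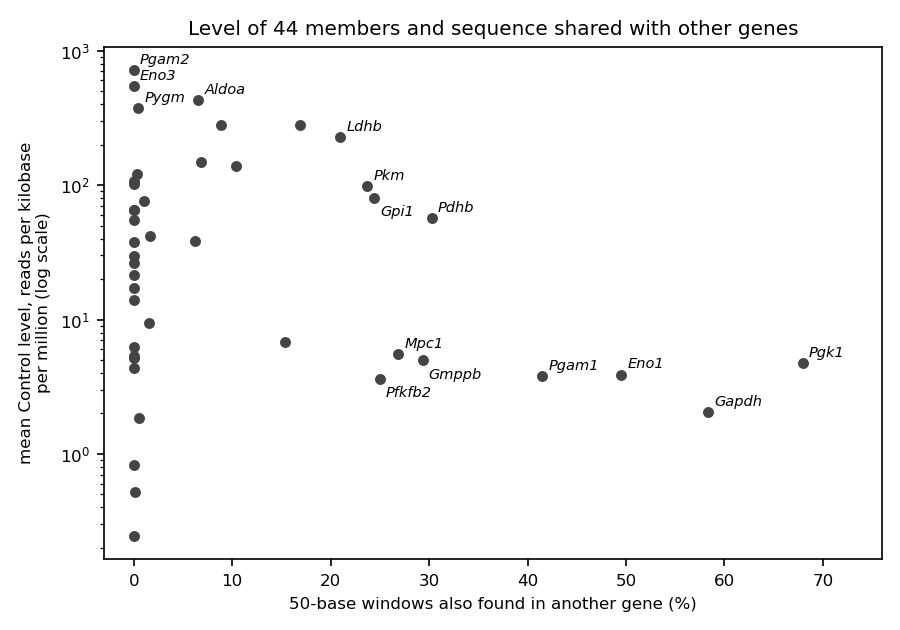
Mean Control level in RPKM (vertical axis, log scale) of the 44 genes against the percentage of their 50-base windows that also occur in another gene (horizontal axis), 1 point per gene. *Gapdh*, *Pgk1*, *Eno1* and *Pgam1*, at 41.5 to 68.0% shared, all lie below 5 RPKM, whereas *Eno3* and *Pgam2* share none and head the order. Other genes that share none, such as *Pmm1* (4.329) and *Aldoc* (0.246), also lie below 5 RPKM.

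At the lactate and pyruvate steps 2 of 12 genes were lower and none was higher, beside 1.34% and 2.78% of all tested genes. *Ldha*, the muscle-type subunit of lactate dehydrogenase, favours the making of lactate from pyruvate and lies at chr7:46841475-46855627 (plus strand). The 250 bases before its first RefSeq start, chr7:46845554-46845803 on the plus strand, are shown because they hold the hexamer CACGTG of E-box factors and the letters ACGTG of the hypoxia response core, whose reverse complement is CACGT; capitals mark both.
Ldha: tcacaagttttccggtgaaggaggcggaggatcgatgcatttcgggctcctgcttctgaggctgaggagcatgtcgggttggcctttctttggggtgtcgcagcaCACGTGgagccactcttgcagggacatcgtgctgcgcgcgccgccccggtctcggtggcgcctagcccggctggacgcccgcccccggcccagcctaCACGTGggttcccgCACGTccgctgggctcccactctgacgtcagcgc
CACGTG begins 145 and 48 bases before the start, and each holds ACGTG on both strands, so the matches of the motifs overlap; a further CACGT begins 34 bases before it. ACGTG was found on either strand in 16.6% of all promoter windows and CACGTG in 6.02%, and in 34.9% and 11.1% of the 63 windows of the genes described here. A second RefSeq start of *Ldha*, with the window chr7:46846832-46847081, held neither motif. Of the 42 matched genes 7 held CACGTG: *Ldha* and *Ldhd*, which were lower, and *Pfkm*, *Pfkfb2*, *Pfkfb3*, *Pdk2* and *Slc16a1*, which were not called. A window of *Pkm*, which was higher, held ACGTG on 1 strand. The muscle factor MEF2's letters TATTTATA were in 1.56% of all windows and in 0 of the 63.

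*Ldha* measured 404.9, 440.6 and 557.4 CPM in Control and 345.1, 354.1 and 379.1 CPM in iNICD. All 6 iNICD libraries were below every Control library, and the iNICD values spread less than the Control values. The log2 fold change was -0.36 ± 0.08 (adjusted p = 0.0190 with edgeR; exact permutation p = 0.00217), and it was -0.30 (adjusted p = 0.00885) without Control replicate 5, the highest Control library. *Ldhb*, the heart-type subunit, which favours lactate use, measured 357.4 ± 19.6 CPM in Control and 353.7 ± 23.7 CPM in iNICD (log2 fold change -0.02 ± 0.06, adjusted p = 0.926). Per kilobase, the *Ldha* share of the summed *Ldha* and *Ldhb* level was 34.9 to 42.9% in Control and 30.6 to 34.9% in iNICD, with means of 37.9 ± 3.57% and 32.5 ± 1.63%. The ranges met at 34.9% without crossing.

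*Ldhd*, the mitochondrial enzyme that oxidises D-lactate, lies at chr8:111623785-111630374 on the minus strand. It measured 20.7, 28.2 and 33.6 CPM in Control and 15.3, 17.98 and 20.5 CPM in iNICD. The groups did not overlap, and the lowest Control library, replicate 5, was just above the highest iNICD library. The log2 fold change was -0.59 ± 0.12 (adjusted p = 0.0114 with edgeR; exact permutation p = 0.00217). *Znrf1* overlaps *Ldhd* on the opposite strand, and whether reads were counted by strand is not stated in the sources used here. *Znrf1* itself measured 59.5 CPM in Control and 61.1 CPM in iNICD (log2 fold change 0.04, adjusted p = 0.795).

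*Pdk1*, a kinase that switches pyruvate dehydrogenase off, measured 175.1, 207.7 and 239.0 CPM in Control and 143.7, 163.4 and 185.0 CPM in iNICD and missed the threshold (log2 fold change -0.31 ± 0.08, adjusted p = 0.0586). Without Control replicate 5, the lowest Control library, it was -0.35 with an adjusted p of 0.0186. *Pdk2*, the kinase of broader tissue range, measured 339.4 ± 82.3 CPM in Control and 343.1 ± 53.5 CPM in iNICD. *Pdk4*, the kinase induced by fasting and not one of the 44, measured 2497 CPM in Control replicate 5, 174.5 to 512.5 CPM in the other Control libraries and 149.5 to 643.9 CPM in iNICD, and was not called (adjusted p = 0.382). Per kilobase *Pdk4* was therefore 88.5% of the *Pdk1*, *Pdk2* and *Pdk4* level in Control replicate 5 and 23.0 to 49.7% in the other Control libraries. The dehydrogenase subunits *Pdha1*, *Pdhb* and *Dlat* had log2 fold changes of 0.07 ± 0.07, 0.04 ± 0.08 and 0.13 ± 0.10, and the mitochondrial pyruvate carrier subunits *Mpc1* and *Mpc2* had -0.08 ± 0.12 and -0.02 ± 0.08. Among monocarboxylate transporters *Slc16a1* (MCT1) measured 242.8 ± 61.2 and 235.2 ± 18.1 CPM, and *Slc16a3* (MCT4), the lactate exporter of glycolytic muscle, 4.38 ± 2.55 and 2.65 ± 0.53 CPM on 46 to 193 counts per library. *Slc16a3* had the lowest log2 fold change of the 43 genes, -0.72 ± 0.31, with an adjusted p of 0.255; this rested on Control replicate 5 (9.03 CPM, against 2.19 to 5.61 CPM in the other Control libraries), without which it was -0.39 and *Ldhd* was lower, at -0.66. Of 17 tested companion genes at these steps *Pdk3*, another of the kinases, was higher (26.8 ± 3.46 CPM in Control, 34.1 ± 1.90 CPM in iNICD, log2 fold change 0.35, adjusted p = 0.0334).

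**Figure D4:**
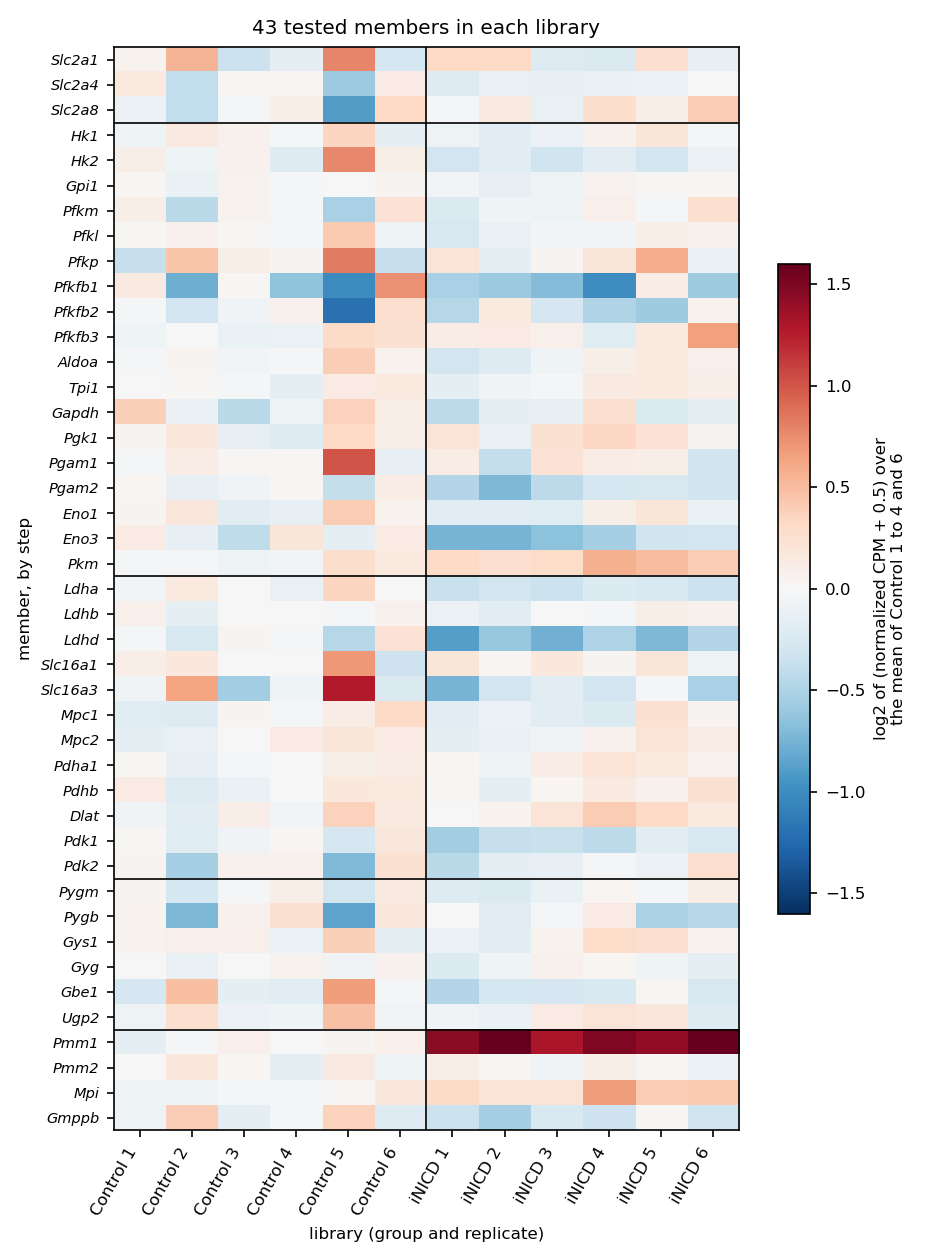
Heat map of the 43 tested genes (rows, by step) in the 12 libraries (columns); colour is the log2 of normalized CPM plus 0.5 over the mean of Control replicates 1 to 4 and 6, so that red is above and blue below those libraries. *Pmm1* is red in all 6 iNICD libraries, *Ldha* and *Ldhd* are blue in all 6, and the column of Control replicate 5 holds deep red and deep blue cells within the Control group.

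None of the 6 glycogen genes was called. *Pygm*, the muscle glycogen phosphorylase, measured 1209 ± 154.7 CPM in Control and 1192 ± 110.5 CPM in iNICD, and *Pygb*, the brain form, 582.6 ± 171.1 and 565.6 ± 99.2 CPM. *Gys1*, the muscle glycogen synthase, *Gyg*, the primer protein glycogenin, and *Ugp2*, which makes UDP-glucose, had log2 fold changes of 0.00 ± 0.10, -0.05 ± 0.06 and -0.05 ± 0.11. *Gbe1*, the branching enzyme, measured 69.3, 78.6 and 133.1 CPM in Control and 60.4, 69.8 and 85.2 CPM in iNICD (log2 fold change -0.38 ± 0.16, adjusted p = 0.240), and its highest value was again that of Control replicate 5, without which the log2 fold change was -0.24. The *Pygm* share of *Pygm* and *Pygb* per kilobase was 76.1 ± 3.62% and 75.9 ± 4.01%.

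Of 21 tested genes among 24 companions at the glycogen step 3 were higher and none was lower, beside 2.78% and 1.34% of all tested genes. *Stbd1*, a protein that tethers glycogen to membranes, measured 1.48, 3.65 and 7.58 CPM in Control and 6.32, 32.6 and 83.8 CPM in iNICD (log2 fold change 3.31, adjusted p = 0.0223; called in 7 of 12 fits that left out 1 library). Its iNICD libraries fell into 3 at 6.32 to 8.87 CPM and 3 at 56.3 to 83.8 CPM, and 2 of the lower 3 were below the highest Control library, replicate 5. *Pygl*, the liver glycogen phosphorylase, measured 3.09, 7.51 and 8.45 CPM in Control and 11.2, 13.3 and 15.8 CPM in iNICD with no overlap (log2 fold change 0.96, adjusted p = 0.0153). *Ppp1r3d*, which directs protein phosphatase 1 to glycogen, measured 20.3 ± 4.09 CPM in Control and 31.5 ± 6.28 CPM in iNICD (log2 fold change 0.63, adjusted p = 0.0434; called in 3 of the 12 fits).

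Over all 120 companion genes of the pathway, 109 of them tested, 5 were higher and 5 lower, beside 2.78% and 1.34% of all tested genes, and 3 of the 10 were regulators. Among 24 regulators *Ppargc1b*, a coactivator of mitochondrial gene expression, was higher (10.4 ± 1.44 and 19.1 ± 2.24 CPM, log2 fold change 0.88, adjusted p = 0.000451). *Prkab1*, a subunit of the energy sensor AMPK, was lower (35.7 ± 7.02 and 21.3 ± 3.69 CPM, log2 fold change -0.75, adjusted p = 0.0129), and so was *Akt2*, the insulin-signalling kinase that brings GLUT4 to the surface (103.9 ± 10.9 and 81.7 ± 5.83 CPM, log2 fold change -0.35, adjusted p = 0.0246). None of the 8 pentose phosphate genes was called. Of the 10 called companions, *Pygl*, *Ppargc1b* and *Prkab1* were called in every fit that left out 1 library, and the other 7 each lost the call in at least 1 of the 12. *Gmppa* was called in 6 (not without Control replicate 1, 3 or 4 or iNICD replicate 1, 3 or 4) and *Akt2* in 6 (not without Control replicate 1, 3 or 4 or iNICD replicate 1, 3 or 5). *Stbd1* was called in 7 (not without Control replicate 1, 2, 3 or 4 or iNICD replicate 1). *Slc2a10*, *Pdk3* and *Ppp1r3d* were called in 3 each: *Slc2a10* without Control replicate 3 or 4 or iNICD replicate 5, *Pdk3* without Control replicate 4 or 5 or iNICD replicate 2, and *Ppp1r3d* without Control replicate 5 or 6 or iNICD replicate 5.

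Control replicate 5 was the highest or lowest of the 6 Control libraries for 31 of the 43 tested genes, the highest for 20 and the lowest for 11, beside 32.6% and 35.8% of all tested genes. Relative to the mean of the other 5 Control libraries it was 2.62-fold for *Slc16a3*, 2.09-fold for *Pgam1*, 1.78-fold for *Pfkp*, 1.73-fold for *Slc2a1* and 1.71-fold for *Hk2*, and 0.384-fold for *Pfkfb1*, 0.426-fold for *Pfkfb2* and 0.530-fold for *Slc2a8*. A list of 16 hypoxia-responsive genes, 15 of them tested, summed to 1609 CPM in this library, 940.3 to 1027 CPM in the other Control libraries and 730.5 to 922.3 CPM in iNICD. The iNICD range lay below that of the other Control libraries. Of the 15 tested genes 2 were called lower, beside 1.34% of all tested genes: *Egln1* and *Egln3*, which encode oxygen-sensing prolyl hydroxylases. *Vegfa* was lower without overlap but did not pass (log2 fold change -0.53, edgeR adjusted p = 0.0542). The list did not move one way: 6 of its 15 tested genes had a log2 fold change above 0 and 9 below, with a median of -0.07. *Ankrd37* (0.78, adjusted p = 0.0563) and *Pfkfb4* (0.37, adjusted p = 0.159) were at the upper end, and the others above 0 were at most 0.08. Its sum rests on a few abundant genes, with means in Control and iNICD of 249 and 172.9 CPM for *Vegfa*, 267.4 and 202.1 CPM for *Egln1*, and 195 and 140.9 CPM for *P4ha1*. Without Control replicate 5, *Pmm1*, *Mpi* and *Pkm* were still higher and *Ldha*, *Ldhd* and *Eno3* still lower, and *Pdk1* and *Pgam2* were lower as well, which made 5 lower genes; over all tested genes 495 were then called higher and 304 lower, against 377 and 181 with every library. Of the 43 log2 fold changes 27 moved by more than 1.5 times or changed in sign without it, none of them of a called gene, and the median of the 43 went from -0.05 to -0.03 with 26 below 0. The part of this library's state in the differences was not tested beyond these values.

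The difference between iNICD and Control was also compared between females and males. The 2 Control males included Control replicate 5, the library that stood apart. Standard errors of the interaction ran from 0.10 for *Gpi1* to 0.80 for *Pfkfb1* on the log2 scale. A lack of calls therefore does not show that the sexes responded alike. None of the 43 genes had an unadjusted p under 0.05 for the interaction of sex and group (edgeR quasi-likelihood test, lowest adjusted p = 0.916); over all tested genes 0 passed after adjustment and 501 had an unadjusted p under 0.05.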

How the data were processed

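RNA of the LA was depleted of ribosomal RNA and sequenced by the authors as stranded libraries with single-end reads of 50 bases. The authors deposited raw read counts per gene name, with no normalization, and a gene length. Their methods describe TopHat2 with HTSeq for the LA, without reads of the mitochondrial genome. They describe STAR with featureCounts (mm10) for comparing RA with LA. The table does not name its counter. It holds 37 mitochondrial genes with 7.52 to 11.2% of the counts, unlike the first route as described. Groups and sex came from the sample labels. No library was a copy of another (lowest chi-square per gene 16.7).

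Genes above 1 CPM in at least 6 libraries were tested on TMM-normalized counts in edgeR 4.0.16 (quasi-likelihood F test, R 4.3.3), two-sided, Benjamini-Hochberg adjusted over all 13541 genes, threshold 0.05; SEs were derived from the F statistic. For single genes an exact permutation test over libraries (924 arrangements) was added. Values are means ± SD of normalized CPM, or per kilobase with the deposited length where genes are compared. Depth of 21432632 to 27182038 counts per library limits precision most for genes with few counts. The fit was tested on simulated data. Alternatives were DESeq2 1.42.0, the exact test of edgeR, other normalizations and filters, sex, replicate blocks, and leaving out each library. Sequence sharing used GENCODE M21 (GRCm38). Every listed gene is accounted for; those past the threshold, at the ends of the fold change order, and isozymes of called genes have values, and companions are named where they pass, except an item that is not reported here. Other genes are named as background to a library or marker check. Members and lists were chosen with earlier results of these data known. RA libraries and human nuclei were not analysed here.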

Additional observations from a re-analysis of the deposited data

Results flagged for a closer look

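Among 106 groups of 6 libraries examined, 9 held a library set far from the other 5 by Dixon's ratio; about 1 in 20 groups, or 5.3 here, is marked by chance. Control replicate 5 gave 4 of the 9. It measured 342.4 CPM for *Hk2* against 173.9 to 213 CPM in the other Control libraries, 180.5 CPM for *Pfkl* against 127.9 to 142.4, 1987 CPM for *Aldoa* against 1460 to 1575, and 12.3 CPM for *Pgam1* against 5.32 to 6.42. Control replicate 6 measured 105.1 CPM for *Mpi* against 89.1 to 95.0 CPM in the others, a value still below every iNICD library. Among iNICD libraries, replicate 5 measured 2.55 CPM for *Pfkfb1* against 0.909 to 1.46, replicate 6 measured 21.5 CPM for *Pfkfb3* against 11.7 to 15.1, replicate 4 measured 9.77 CPM for *Gapdh* against 5.93 to 7.34, and replicate 2 was the lowest for the companion gene *Pdk3*, with 30.5 CPM against 34.0 to 35.8. The cause of these values was not tested.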

How the results depend on the processing

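Leaving out each library in turn gave 2 to 3 higher and 2 to 5 lower genes among the 43, and *Pmm1*, *Mpi*, *Ldha* and *Ldhd* were called in all 12 of these fits. *Eno3* lost its call without Control replicate 1, 4 or 6 or iNICD replicate 1, 2, 3 or 4, and *Pkm* without Control replicate 1, 2, 3 or 4 or iNICD replicate 4, 5 or 6. DESeq2 and the exact test of edgeR each called 5 lower genes, adding *Pdk1* and *Pgam2*, and sex as a covariate called 4, adding *Pdk1*. With no filter *Pkm* was not called (adjusted p = 0.0662), which left 2 higher genes. The count of higher companion genes was 9 with DESeq2, 8 with the exact test, 3 with upper-quartile normalization and 2 to 6 without single libraries; that of lower companion genes was 10 with DESeq2 and 1 to 7 without single libraries. Over all genes DESeq2 called 615 higher and 444 lower. The causes of these shifts were not tested. No call changed sign.

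Same-numbered libraries did not deviate together in every pair: by title number the 6 correlations were 0.20, 0.13, -0.11, -0.15, 0.28 and 0.37, and by description number, which exchanges 2 Control libraries, they were 0.20, 0.13, -0.11, 0.18, 0.05 and 0.37. With a replicate block by title number or by description number the same 6 of the 43 genes were called, 3 higher and 3 lower. With the block by title number 1 companion gene was called lower, *Prkab1*, and 6 were called higher. These 6 held *Pygl*, *Ppargc1b*, *Stbd1* and *Ppp1r3d* but not *Pdk3*. With the block by description number *Prkab1* was again the 1 lower gene, and 3 were called higher. These 3 held *Pygl* and *Ppargc1b* but not *Pdk3*, *Stbd1* or *Ppp1r3d*. *Gmppa*, *Slc2a10* and *Akt2* lost their calls under both blocks.

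With 6 libraries per group, a difference of the size of the SE of a gene was not detectable, and the 6 genes with an SE above 0.2 on the log2 scale allow the least.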
